A study of Homo sapiens with 6 samples.

Results

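The BCL2 family of apoptosis regulators was described in the triple-negative breast cancer cell line MDA-MB-231 after treatment with the peptide PDBAG1. The 10 genes were chosen by symbol from the 17631 genes with a deposited value, as 4 anti-apoptotic members (BCL2, BCL2L1, MCL1 and BCL2A1), 2 effectors (BAX and BAK1) and 4 BH3-only members (BBC3, PMAIP1, BCL2L11 and BID). PDBAG1 joins a cell-penetrating sequence to a segment of the metabolic enzyme GPD1 and was studied as an inhibitor of the mitochondrial protein C1QBP. RNA was sequenced in 3 libraries from cells given vehicle and 3 from cells given 30 µM PDBAG1, each for 24 h, in medium with serum and antibiotics, and the composition of the vehicle was not given in the sources used here. All 6 libraries came from this established human line, which carries the same background in both groups. Nothing in the labels says whether libraries of a group were separate cultures or repeats of one, so p-values measure the spread between these libraries only. The study measured cell death by annexin V staining at this dose and time, and the comparison made here asks which transcripts of the family differed between the groups.

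The family controls whether the outer mitochondrial membrane is opened. The effectors BAX and BAK1 form the pores through which cytochrome c leaves the mitochondrion, the anti-apoptotic members hold the effectors and BH3-only proteins in inactive complexes, and the BH3-only proteins are sensors that either occupy the anti-apoptotic members or act on the effectors directly. Much of this control lies in protein turnover, binding and phosphorylation, which transcript levels do not record. Breast cancer cells commonly depend on MCL1 or on BCL-XL, the long product of BCL2L1.

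Values were in TPM, a transcript abundance that corrects for gene length and gives every library an equal total, so that levels of different genes can be compared. Between 12392 and 12611 genes per library reached 1 TPM, and TPM keep no sequencing depth, so the counting error behind each value is unknown. VIM, CD44, AXL, MSN and CAV1, markers of this mesenchymal-like line, ranged from 309 to 5941 TPM, whereas SPARC, fixed in the same list, stayed between 0.590 and 0.930 TPM. Of the receptors that define the triple-negative class, PGR was at most 0.0600 TPM, ESR1 lay between 1.96 and 3.38 TPM and ERBB2 between 23.6 and 25.4 TPM. The 5 markers of other cell types that were listed (PTPRC, CD79A, PECAM1, VWF and ADIPOQ) summed to 5.32 to 6.07 TPM with vehicle and 9.67 to 11.3 TPM with PDBAG1, of which the endothelial adhesion gene PECAM1 made up 3.78 to 4.08 and 7.87 to 9.15 TPM, while VWF, the other endothelial marker, stayed at 0.0900 TPM or below. The part of these markers in the results was not tested.

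With PDBAG1, MCL1, BCL2A1 and the BH3-only gene BBC3 rose at least 1.5-fold, BCL2L1 and the BH3-only gene PMAIP1 fell by less, and BCL2, BAX, BAK1, BCL2L11 and BID did not pass the test. All 10 genes reached 1 TPM in each of the 6 libraries. Differences were taken on the log2(TPM + 1) scale and tested with limma over the 12582 genes that had 1 TPM in at least 3 libraries, with Benjamini-Hochberg adjusted p-values. At an adjusted p under 0.05, 5 of the 10 members were called, beside 37.6% of all genes tested. With the 1.5-fold limit that the study used, 3 of the 10 were called, all of them higher, beside 3.34% of all genes tested in either direction, 2.86% higher and 0.477% lower. The median log2 difference of the 10 members was -0.02, and that of all genes tested was 0.03. In cultures measured in bulk, fewer cells carrying a transcript and less of it per cell cannot be told apart.

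The DNA upstream of the listed transcript starts of 4 members that changed is printed. These genes are all the members called at an adjusted p under 0.05 for which a promoter window was available. Pairs of them moved in opposite directions within the anti-apoptotic and the BH3-only class. The windows lie before the RefSeq start listed first for each gene (GRCh38.p14) and are written 5′ to 3′ on the strand of the gene. They stop where an exon annotated in GENCODE v44 begins. Capitals mark matches, on either strand, to 5 motifs that were searched: the hypoxia response core ACGTG, the AP-1 element TGANTCA, the ATF4/CEBP composite TGATGNAA, the TATA box TATAAA and the kappa-B consensus. MCL1 had no entry in the promoter table.
BCL2A1 (rose), chr15:79971197-79971446, minus strand: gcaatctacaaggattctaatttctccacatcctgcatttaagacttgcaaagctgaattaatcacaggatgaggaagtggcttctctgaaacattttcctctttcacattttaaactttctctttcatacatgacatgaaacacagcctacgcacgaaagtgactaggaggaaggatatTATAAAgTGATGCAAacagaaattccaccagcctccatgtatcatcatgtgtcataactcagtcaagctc
BCL2L1 (fell), chr20:31723990-31724213, minus strand: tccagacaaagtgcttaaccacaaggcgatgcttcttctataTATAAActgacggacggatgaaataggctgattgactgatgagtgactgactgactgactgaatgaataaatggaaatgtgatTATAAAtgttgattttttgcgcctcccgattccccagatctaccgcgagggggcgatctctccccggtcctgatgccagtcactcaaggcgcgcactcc
BBC3 (rose), chr19:47232767-47232917, minus strand: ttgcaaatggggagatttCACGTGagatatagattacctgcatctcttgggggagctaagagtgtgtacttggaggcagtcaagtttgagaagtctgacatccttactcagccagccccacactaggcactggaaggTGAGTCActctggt
PMAIP1 (fell), chr18:59899746-59899995, plus strand: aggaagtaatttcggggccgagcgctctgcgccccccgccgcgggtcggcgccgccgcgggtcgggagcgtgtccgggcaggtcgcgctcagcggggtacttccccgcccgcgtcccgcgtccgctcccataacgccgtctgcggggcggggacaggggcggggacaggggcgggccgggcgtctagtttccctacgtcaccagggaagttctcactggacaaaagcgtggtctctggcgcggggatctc

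The window of BCL2A1 held a TATA box 70 bases before the start and, separated from it by a single base, an ATF4/CEBP match 63 bases before the start. Among the 35116 windows of 250 bases in the promoter table, 10.7% held TATAAA and 3.14% held TGATGNAA. The window of BBC3 held CACGTG, which matches the hypoxia core on both strands, 232 bases before the start, and an AP-1 match 113 bases before it, motifs found in 18.5% and 6.57% of all windows. BCL2L1 had TATAAA at 208 and 125 bases before the start listed first. The window of its other listed start, 60.4% G and C and not printed, held none of the 5 motifs. In PMAIP1, whose window was 72.8% G and C against 38.8% in BCL2A1, none of the 5 motifs was found. The kappa-B consensus, found in 9.96% of all windows, was absent from the listed windows of the 9 members with an entry. The windows of the other members were not printed, and the most hypoxia core matches were in that of BAX, with 9 on both strands together. Each CACGTG counts on both strands, so these matches mark fewer than 9 places. The BAX window was counted in full, although the annotated BAX gene begins inside it, at 48954815, and an exon of BAX overlaps it. Some of its matches therefore lie within the annotated gene. Such matches describe letters only.

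**Figure D1:**
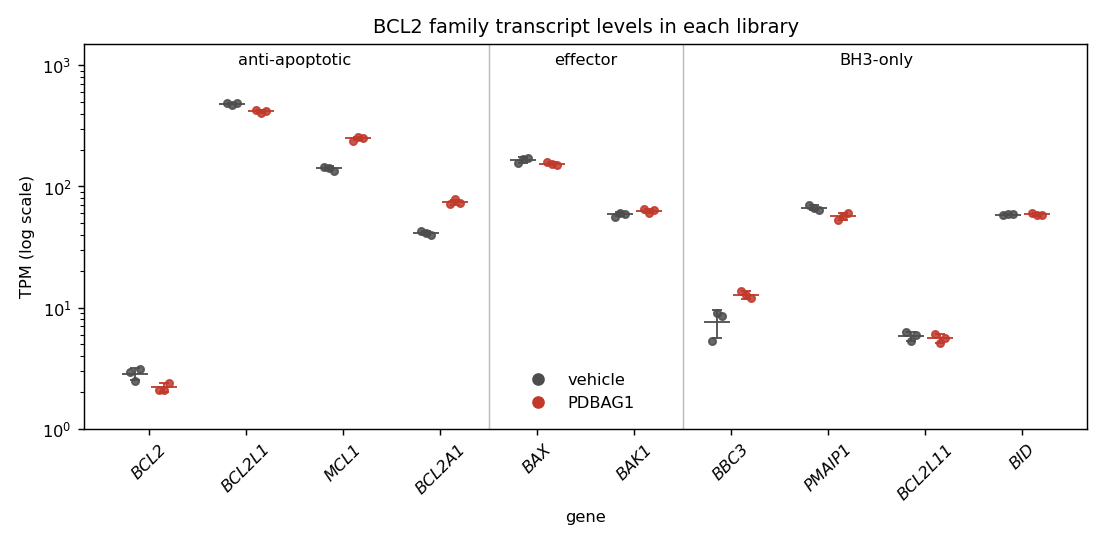
Level of each of the 10 BCL2 family genes in TPM on a log scale, with 1 point per library (grey, 3 vehicle; red, 3 PDBAG1) and a bar at the group mean with the SD. MCL1, BCL2A1 and BBC3 lie higher with PDBAG1, BCL2L1, PMAIP1 and BCL2 lie lower, and the groups of BAX, BAK1, BCL2L11 and BID overlap.

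Among the anti-apoptotic genes, MCL1 (chromosome 1, 150560895 to 150579738, GRCh38, GENCODE v44), which encodes a short-lived protein that binds BAK1, PMAIP1 and BCL2L11, had 146, 143 and 135 TPM in the vehicle libraries and 239, 255 and 253 TPM in the PDBAG1 libraries. Every PDBAG1 library lay above every vehicle library. The mean went from 141 ± 5.64 to 249 ± 8.49 TPM (n = 3 per group, SD), a log2 difference of 0.81 (standard error 0.04, 95% interval 0.72 to 0.91, limma adjusted p = 1.07e-08). In absolute size this difference exceeded that of 98.7% of the genes tested.

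BCL2A1 (chromosome 15, 79960892 to 79971196), a known NF-kB target also called BFL1 whose protein restrains BID and BCL2L11, was lower in abundance and changed by a similar ratio. Its values were 42.7, 41.0 and 40.1 TPM with vehicle and 71.2, 78.2 and 73.4 TPM with PDBAG1, again with no overlap. The mean rose from 41.3 ± 1.34 to 74.3 ± 3.59 TPM (n = 3 per group, SD), a log2 difference of 0.83 (standard error 0.05, 95% interval 0.72 to 0.94, limma adjusted p = 6.09e-08). Over the fits that each omitted a library the difference stayed between 0.78 and 0.84 for MCL1 and between 0.79 and 0.86 for BCL2A1.

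BCL2L1 (chromosome 20, 31664452 to 31723989), the source of BCL-XL, was the most abundant member in both groups. It had 489, 475 and 485 TPM with vehicle and 427, 406 and 421 TPM with PDBAG1. All 3 PDBAG1 values lay below the vehicle values, and the mean changed from 483 ± 7.25 to 418 ± 11.05 TPM (n = 3 per group, SD), a log2 difference of -0.21 (standard error 0.04, 95% interval -0.28 to -0.13, limma adjusted p = 0.000482). The fall was small in relative terms, and in TPM it was more than matched by the gain of MCL1.

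BCL2 itself (chromosome 18, 63123346 to 63320128), the founding member of the family, was close to the expression limit. Its levels were 2.95, 2.48 and 3.12 TPM with vehicle and 2.11, 2.09 and 2.41 TPM with PDBAG1. The groups did not overlap, but the log2 difference of -0.26 (standard error 0.11, 95% interval -0.50 to -0.03) had a limma adjusted p = 0.0709. It passed the threshold without vehicle replicate 2 (-0.33, limma adjusted p = 0.0473), under median-of-ratios scaling (-0.29, limma adjusted p = 0.0339) and under quantile normalization (-0.36, limma adjusted p = 0.0131), and no other setting tried brought it under 0.05.

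**Figure D2:**
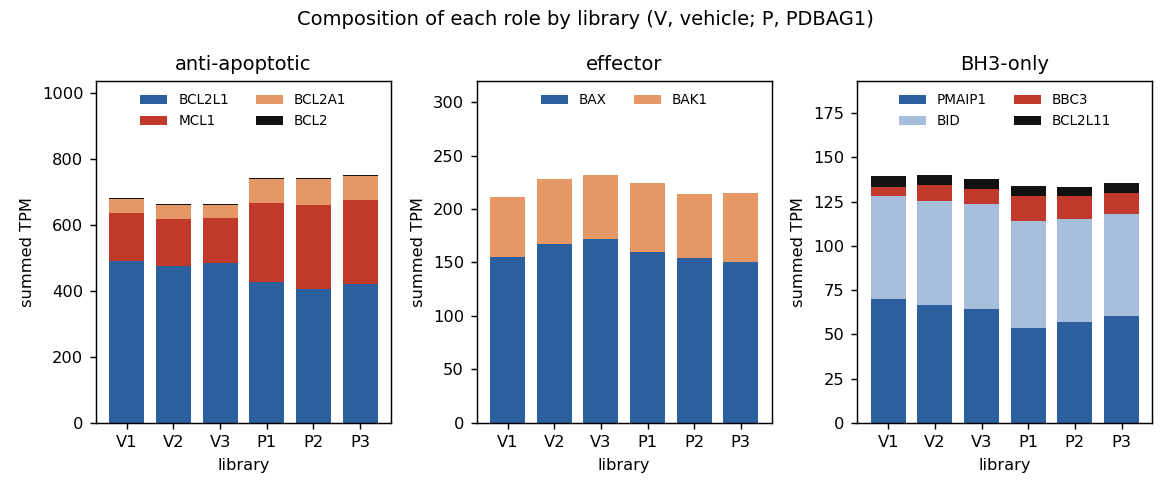
Summed TPM of the anti-apoptotic, effector and BH3-only members in each library (V1 to V3, vehicle; P1 to P3, PDBAG1), with 1 colour per gene and axes that start at 0. The red MCL1 segment is wider and the BCL2L1 segment narrower in the 3 PDBAG1 libraries, while the effector bars overlap between groups.

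The make-up of the anti-apoptotic pool moved from BCL2L1 towards MCL1 and BCL2A1, as the stacked bars of summed TPM show. BCL2L1 made up 71.8% to 73.1% of the summed TPM of the 4 genes with vehicle and 54.8% to 57.7% with PDBAG1, a difference of means of -16.0 percentage points. The share of MCL1 went from 21.1% ± 0.692 to 33.5% ± 1.05 and that of BCL2A1 from 6.18% ± 0.120 to 9.99% ± 0.496 (n = 3 per group, SD). BCL2 contributed between 0.282% and 0.471% in any library. There were 0.292 ± 0.0126 MCL1 transcripts per BCL2L1 transcript with vehicle and 0.596 ± 0.0343 with PDBAG1 (n = 3 per group, SD), and the summed level of the 4 genes rose from 668 ± 10.4 to 744 ± 5.50 TPM. These shares lie apart between the groups in every library. They are given as a description, and no test was run on them.

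The effectors moved little. BAX (chromosome 19, 48954815 to 48961798) had 155, 167 and 172 TPM with vehicle and 159.5, 154 and 150.3 TPM with PDBAG1, with overlapping groups. Its log2 difference was -0.09 (95% interval -0.19 to 0.01, limma adjusted p = 0.142), and it passed the threshold without vehicle replicate 1, the lowest of the vehicle values (-0.14, limma adjusted p = 0.0361). BAK1 (chromosome 6, 33572547 to 33580293) had 56.3, 60.7 and 59.4 TPM with vehicle and 65.0, 60.4 and 64.4 TPM with PDBAG1, a log2 difference of 0.10 (95% interval -0.01 to 0.21, limma adjusted p = 0.132). The intervals leave room for changes of up to 0.21 in size on the log2 scale, and exclude a 1.5-fold change. The BAX share of the effector pool was 73.3% to 74.4% with vehicle and 70.0% to 71.8% with PDBAG1, which corresponds to 2.80 ± 0.0854 and 2.45 ± 0.106 BAX transcripts per BAK1 transcript (n = 3 per group, SD).

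The BH3-only genes split. BBC3 (chromosome 19, 47220822 to 47232766), which encodes PUMA, a BH3-only protein that binds all anti-apoptotic members, had 5.35, 9.02 and 8.56 TPM with vehicle and 13.8, 12.7 and 11.95 TPM with PDBAG1. The groups did not overlap, although vehicle replicate 1 lay well below the other vehicle libraries. The mean rose from 7.64 ± 2.00 to 12.8 ± 0.946 TPM (n = 3 per group, SD), a log2 difference of 0.70 (standard error 0.14, 95% interval 0.41 to 1.00, limma adjusted p = 0.00127). Without vehicle replicate 1 it was 0.50, still called at the adjusted p but short of the 1.5-fold limit, which left 2 of the 10 members past that limit.

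PMAIP1 (chromosome 18, 59899996 to 59904305), which encodes NOXA, the BH3-only partner that binds MCL1 and BCL2A1 and promotes the breakdown of MCL1, went the other way. It had 70.0, 66.3 and 64.6 TPM with vehicle and 53.3, 56.9 and 60.4 TPM with PDBAG1, without overlap. The mean changed from 67.0 ± 2.77 to 56.9 ± 3.56 TPM (n = 3 per group, SD), a log2 difference of -0.23 (standard error 0.06, 95% interval -0.35 to -0.11, limma adjusted p = 0.00504). As MCL1 rose and PMAIP1 fell, there were 2.11 ± 0.0431 MCL1 transcripts per PMAIP1 transcript with vehicle and 4.38 ± 0.175 with PDBAG1 (n = 3 per group, SD).

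BCL2L11 (chromosome 2, 111119378 to 111168444), which encodes BIM, a strong activator of BAX and BAK1, was low and overlapped between groups, at 6.29, 5.31 and 5.90 TPM with vehicle and 6.01, 5.12 and 5.62 TPM with PDBAG1. Its log2 difference was -0.05 (95% interval -0.25 to 0.15, limma adjusted p = 0.685). BID (chromosome 22, 17734138 to 17774770), which links death receptors to mitochondria once caspase-8 cuts it, was the most even member, at 58.0 to 59.3 TPM with vehicle and 57.7 to 60.9 TPM with PDBAG1. The log2 difference of BID was 0.01 (95% interval -0.10 to 0.11, limma adjusted p = 0.934), and its sign turned under both other scalings and without vehicle replicate 1 or PDBAG1 replicate 1. The intervals of both genes exclude a 1.5-fold change.

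In order of level with vehicle, the members ran BCL2L1, BAX, MCL1, PMAIP1, BAK1, BID, BCL2A1, BBC3, BCL2L11 and BCL2. Of these neighbours, BAK1 and BID overlapped, as did BBC3 and BCL2L11, and the others lay apart in all 3 libraries. With PDBAG1 the order was BCL2L1, MCL1, BAX, BCL2A1, BAK1, BID, PMAIP1, BBC3, BCL2L11 and BCL2, with overlaps between BAK1 and BID and between BID and PMAIP1. MCL1 had moved past BAX, and BCL2A1 past PMAIP1, BAK1 and BID. In all, 6 of the 10 members had groups that did not overlap, beside 47.4% of all genes tested.

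The profiles most like those of the 2 members with the largest called differences were sought over the 6 libraries, as the root mean square distance between log2(TPM + 1) values after subtraction of each gene's mean. The nearest gene to BCL2A1 among all those tested was MCL1, at a distance of 0.03, followed by EGLN1, an oxygen-sensing prolyl hydroxylase, and the adhesion receptor gene ADGRG1. The nearest to MCL1 were EGLN1 (distance 0.02), RAB31, a membrane traffic GTPase, and LPIN1, a lipid phosphatase. EGLN1 went from 28.8 ± 1.14 to 51.6 ± 2.70 TPM (n = 3 per group, SD), with a log2 difference of 0.82 like that of MCL1. With 6 libraries in 2 groups, this distance mainly picks genes with a like difference between treatments.

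**Figure D3:**
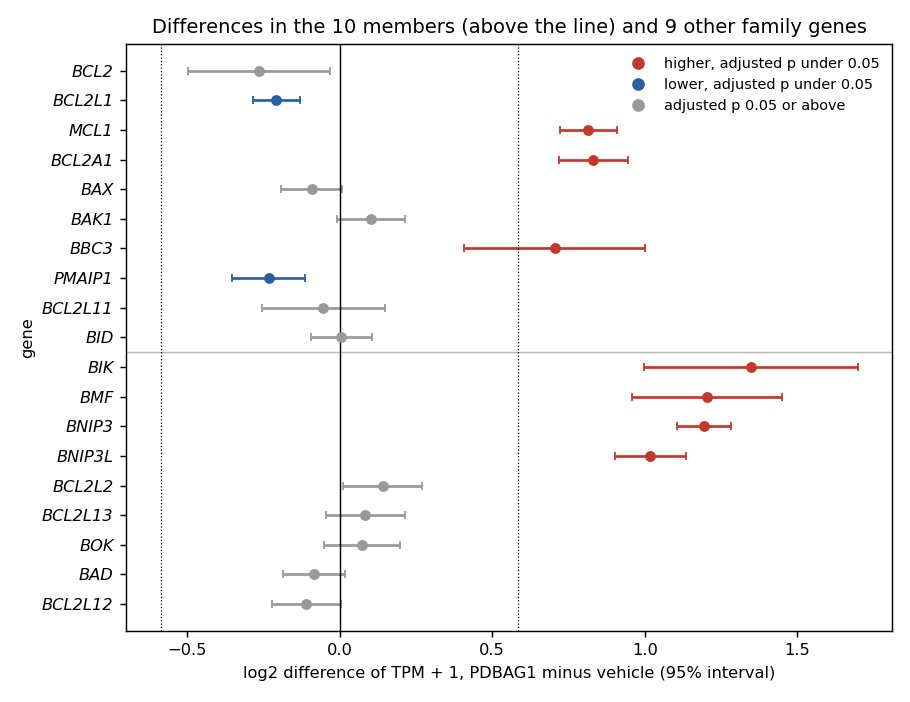
Log2 difference of TPM + 1 (PDBAG1 minus vehicle) with its 95% interval for the 10 members and, below the line, the 9 tested genes of the list of other family members. Red marks genes that were higher, blue those that were lower (limma adjusted p under 0.05), and dotted lines a 1.5-fold change, which BIK, BMF, BNIP3, BNIP3L, MCL1, BCL2A1 and BBC3 passed, all of them higher.

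Other genes of the family differed by more than any of the 10 members. Of 13 such genes, 9 were tested in limma, of which 4 rose at an adjusted p under 0.05 and 0 fell, at that threshold or at an unadjusted p under 0.05. Without vehicle replicate 1, the 0 became 1. The median log2 difference of the 9 was 0.14. Among all genes tested, 21.7% were higher and 15.9% lower at an adjusted p under 0.05. These shares also stand beside the count of each list below. The 4 that rose all encode BH3-only or BH3-like proteins and all passed the 1.5-fold limit. BIK, a BH3-only protein of the endoplasmic reticulum, had 2.75, 2.98 and 3.46 TPM with vehicle and 11.5, 10.96 and 6.33 TPM with PDBAG1. Its log2 difference was 1.35 (standard error 0.16, limma adjusted p = 2.68e-05), and PDBAG1 replicate 3 rose less than the other 2.

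BMF, a BH3-only protein held at the cytoskeleton in healthy cells, had 1.14, 1.5 and 1.15 TPM with vehicle and 3.68, 4.63 and 4.35 TPM with PDBAG1, a log2 difference of 1.21 (standard error 0.11, limma adjusted p = 2.99e-06). On this scale the pseudocount of 1 understates the change of genes as low as BIK and BMF, whose means differed 3.14-fold and 3.34-fold. BNIP3, a hypoxia-induced BH3-like protein best known as a receptor for the removal of mitochondria, rose from 184 ± 4.83 to 423 ± 17.6 TPM and its relative BNIP3L from 43.8 ± 2.57 to 89.6 ± 2.93 TPM (n = 3 per group, SD). Their log2 differences were 1.195 and 1.02. BCL2L2, an anti-apoptotic relative, had a log2 difference of 0.14 (limma adjusted p = 0.0796), and the BH3-only gene BAD, at 169 ± 8.03 TPM with vehicle, one of -0.08 (limma adjusted p = 0.184). The effector relative BOK stood at 0.07 (limma adjusted p = 0.346), and BCL2L10, BCL2L14, BCL2L15 and HRK had too little transcript to be tested.

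Counted over both sets, 9 BH3-only or BH3-like genes were tested, of which 5 rose, 1 fell and 3 did not pass. Among all genes tested, 21.7% were higher and 15.9% lower. The grouping of both sets was made after the values were seen. It alters the balance between classes: per BH3-only transcript of the 4 members there were 4.80 ± 0.0714 anti-apoptotic transcripts with vehicle and 5.54 ± 0.0264 with PDBAG1 (n = 3 per group, SD), and with BAD, BIK, BMF and HRK added the ratio was 2.14 ± 0.0897 and 2.42 ± 0.0778. With BNIP3 and BNIP3L added as well it was 1.24 ± 0.0499 with vehicle and 0.907 ± 0.0278 with PDBAG1. The direction of a ratio of summed transcripts between the classes thus turned on whether BNIP3 and BNIP3L were counted. Only the BH3-only side was widened. The anti-apoptotic side kept its 4 members, without BCL2L2, whose means were 30.1 TPM with vehicle and 33.4 TPM with PDBAG1.

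**Figure D4:**
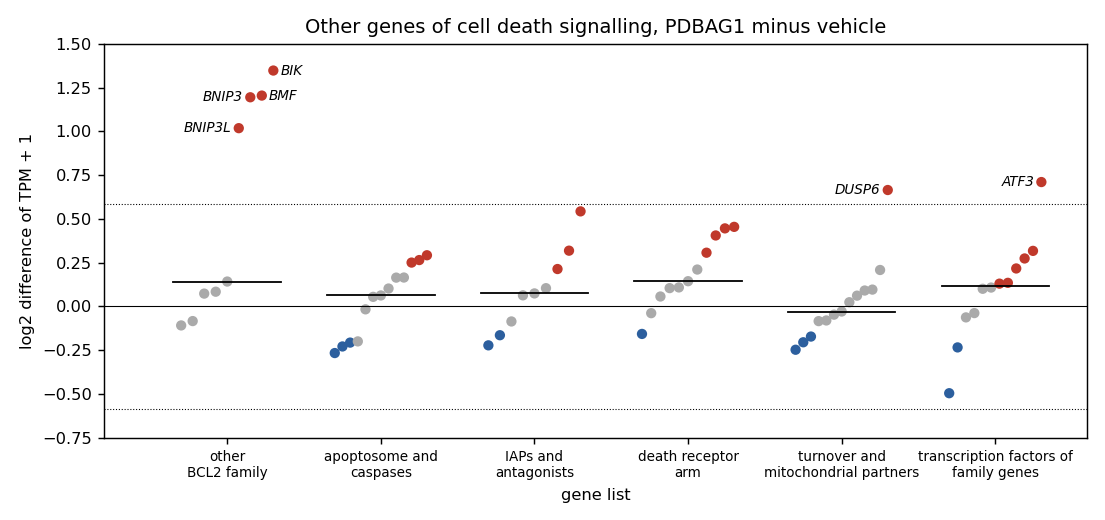
Log2 difference of TPM + 1 (PDBAG1 minus vehicle) for each tested gene of 6 lists, with 1 point per gene, a black bar at the median of the list and dotted lines at a 1.5-fold change. Red and blue points passed a limma adjusted p under 0.05, and the named genes, BIK, BMF, BNIP3, BNIP3L, DUSP6 and ATF3, also passed 1.5-fold.

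Downstream of the mitochondrion, differences were small and in both directions. Of 13 genes of the apoptosome, caspases and their nuclease partners, 3 rose and 3 fell at a limma adjusted p under 0.05, none by 1.5-fold, with a median log2 difference of 0.06. The members that rose were the apoptosome scaffold APAF1 (0.25), the initiator caspase gene CASP9 (0.26) and CASP10 of the death receptor pathway (0.29). Those that fell included CYCS (-0.27), which encodes the cytochrome c that BAX and BAK1 pores release, and the nuclease inhibitor DFFA (-0.23). The 3 rises became 0 without vehicle replicate 3, and 1 without vehicle replicate 2, without PDBAG1 replicate 2, with the replicate block, under quantile normalization or with no filter, and the 3 falls became 1 without PDBAG1 replicate 2.

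Of 9 tested genes that encode inhibitors of apoptosis proteins (IAPs) or their antagonists, 3 rose and 2 fell, with a median of 0.07. The NF-kB target BIRC3 had 34.3, 31.5 and 30.9 TPM with vehicle and 44.8, 48.1 and 49.3 TPM with PDBAG1, a log2 difference of 0.54 (limma adjusted p = 1.14e-05). XIAP, the direct caspase inhibitor, was higher by 0.32 and its mitochondrial antagonist HTRA2 by 0.21, whereas the antagonist DIABLO was lower (-0.16). BIRC5, an IAP relative made mainly in dividing cells, was lower by -0.22 on the log2 scale. The 2 falls became 1 without vehicle replicate 3.

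In the death receptor arm, 11 genes were tested, of which 4 rose and 1 fell (median 0.14). TNFRSF10B, the receptor DR5 for the ligand TRAIL, had 44.55, 43.2 and 42.3 TPM with vehicle and 59.7, 59.4 and 59.1 TPM with PDBAG1, a log2 difference of 0.45 (limma adjusted p = 9.83e-06). The decoy receptor gene TNFRSF10D was higher as well, by 0.31, and the adaptor TRADD by 0.41. TNFRSF10C, another decoy receptor gene, was higher by 0.45 (limma adjusted p = 0.0278), but was low and its groups overlapped. It had 2.84, 1.62 and 2.02 TPM with vehicle and 3.44, 2.58 and 3.92 TPM with PDBAG1. The adaptor FADD was lower (-0.16, limma adjusted p = 0.0412), a call that was absent in 6 of the 12 other fits. FAS had a log2 difference of -0.04 (limma adjusted p = 0.757) and CFLAR, the inhibitor of caspase-8, one of 0.06 (limma adjusted p = 0.417).

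A list of enzymes and mitochondrial partners that act on BCL2 family proteins had a median of -0.03, with 1 rise and 3 falls among 13 genes tested. The rise was that of DUSP6, an ERK phosphatase, from 114 ± 4.69 to 181 ± 9.67 TPM (n = 3 per group, SD; log2 difference 0.67), and the falls were those of VDAC3 (-0.17), DYNLL1 (-0.21) and DYNLL2 (-0.25), the dynein light chains that tether BCL2L11 and BMF. The genes that direct MCL1 turnover did not pass: HUWE1 differed by 0.10 (limma adjusted p = 0.250), FBXW7 by 0.02 (limma adjusted p = 0.890), BTRC by 0.06 (limma adjusted p = 0.588), MARCHF5 by -0.08 (limma adjusted p = 0.233) and the MCL1 deubiquitinase gene USP9X by 0.21 (limma adjusted p = 0.0566). DUSP6 was joined by another gene at the threshold in 4 of the 12 other fits.

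Of 12 tested genes for transcription factors known to act on this family, 6 rose and 2 fell, with a median of 0.12. ATF3, a stress-induced factor, rose from 4.27 ± 0.889 to 7.57 ± 0.716 TPM (n = 3 per group, SD; log2 difference 0.71), FOXO3, an activator of BCL2L11 and BBC3, by 0.32 and the NF-kB subunit gene RELA by 0.27. E2F1, a factor of the cell cycle, was lower (-0.50). DDIT3, another activator of BBC3 and BCL2L11, differed by -0.04 (limma adjusted p = 0.561). Over all 6 lists, counted together, 32 of the 67 genes tested were called, 21 of them higher and 11 lower, beside 21.7% higher and 15.9% lower among all genes tested. Without PDBAG1 replicate 2 the 11 became 7.

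Each value sums the transcripts of a gene. BCL2L1, MCL1 and BCL2L11 give splice forms with opposed or differing activity, which these values do not separate. Annotated genes on the opposite strand overlapped BAK1 and BCL2L11 over their whole length and BCL2L1 over at least 30610 of its 59538 bases. Shorter overlaps on the opposite strand were listed for MCL1 (822 and 43 of its 18844 bases), BCL2 (547 bases) and BBC3 (80 bases). ADAMTSL4-AS1 overlapped MCL1 on the same strand over 1221 bases. All these overlaps are between whole gene spans, introns included, and overlap between exons was not measured. The library protocol was not stated to keep strand, so reads from either strand could have been counted to these members.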

How the data were processed

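RNA from MDA-MB-231 cells was sequenced as mRNA libraries on the BGISEQ-500 platform, 3 per group. The submitters' processing notes name HISAT2 2.0.4, Bowtie2 2.2.5, RSEM 1.2.12 and GRCh38.p12, whereas the paper's methods name a later patch of GRCh38 and FPKM. What the authors deposited is TPM per gene, rounded to 2 decimals, with library sums of 999998 to 1000000. The annotation release was not given in the sources used here. TPM keep no depth, so precision rests on the spread between libraries, and no count test was run.

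Groups came from the sample titles. Genes with at least 1 TPM in 3 or more libraries (12582) were tested on log2(TPM + 1) with limma 3.58.1 in R 4.3.3 (lmFit, eBayes with trend, no covariate), Benjamini-Hochberg adjusted over all of them. Calls used an adjusted p under 0.05, and separately a 1.5-fold limit. The members, lists and tests were chosen with earlier results of these data known. Named genes were all members, up to 5 called genes per list with the largest differences, and the 3 most similar profiles for 2 members; others are given for their role, and some genes of the lists are counted but not reported by name here. Positions are from GENCODE v44, matched by Ensembl identifier, and promoter windows from RefSeq, with 9 of 10 members matched. The fit was tested on simulated data. Alternatives were a pseudocount of 0.1, no filter, 1 TPM in every library, median-of-ratios scaling, quantile normalization, the replicate number as a block and each library left out.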

Additional observations from a re-analysis of the deposited data

How the results depend on the processing

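The calls of MCL1, BCL2A1, BBC3, BCL2L1 and PMAIP1 were kept, with their direction, under all 12 other fits (pseudocount, filters, scalings, block and each library left out). With the 1.5-fold limit in addition, 3 members were higher and 0 lower, of the listed genes 6 were higher and 0 lower, and of all genes 360 were higher and 60 lower. With a pseudocount of 0.1, 630 of all genes tested passed the adjusted p and the 1.5-fold limit, against 420 in the main fit. The members past that limit numbered 3 in both fits. Leaving out each library in turn, the listed genes called lower ranged from 7 (without PDBAG1 replicate 2) to 11. The log2 difference of BID, not called in any fit, was -0.028 under median-of-ratios scaling, -0.011 under quantile normalization, and between -0.017 and 0.021 with each library left out, and the cause was not tested. The difference between groups in the anti-apoptotic to BH3-only ratio, 0.74 for the members, was 0.28 with BAD, BIK, BMF and HRK added and -0.33 with BNIP3 and BNIP3L added as well, by the levels of the genes added, a choice made after the data were seen. Of the calls over all genes, 57.8% were higher in the main fit and 46.7% under quantile normalization, which moved the median of all genes from 0.03 to -0.02. In the fit with a replicate block (the replicate number), 3 members were called higher and 2 lower, and the block moved no count of members. The labels give the numbers no shared origin, and same-numbered libraries correlated at -0.21, 0.01 and -0.08 in their deviations from the group means. Without depth, no limit from counting could be set for low genes such as BCL2, BMF and BIK.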
